A study of Homo sapiens with 39 samples.

Results

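The comparison described here is between the RNA sites crosslinked by S34F mutant U2AF1 and those crosslinked by wild-type (WT) U2AF1 in the cytoplasm of Flp-In-293 cells, an established HEK 293 derived human cell line made for the stable integration of transgenes. The cells expressed U2AF1 with a FLAG-HA tag, in either the WT or the S34F form, and the tagged protein with its RNA was studied by PAR-CLIP. All clusters of the S34F cytoplasmic list (28828) and of the WT cytoplasmic list (26613) were taken, together 55441 of the 148336 clusters in the 3 lists of the series. The third list, with 92895 clusters, is from the chromatin fraction of cells with WT protein and is used only for reference. Each list pools a replicate A and a replicate B (4 cytoplasmic samples in all), so no spread between replicates can be computed and no test was made. Intervals are exact 95% intervals that cover counting error only, and PCR copies are not independent molecules. The series also has RNA immunoprecipitation and polysome libraries from human bronchial epithelial cells (HBEC) with WT or S34F U2AF1, with 1 immunoprecipitate per line.

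U2AF1 is the small subunit of the U2 auxiliary factor. It contacts the AG dinucleotide that ends an intron, while its partner U2AF2 binds the pyrimidine tract just before that AG, and together they help to bring the U2 snRNP to the branch site. S34F, a serine-to-phenylalanine change in a zinc finger of U2AF1, is a recurrent mutation of myelodysplastic syndromes and lung adenocarcinoma, and is known to change the use of 3′ splice sites according to the base just before the AG, disfavouring T there. In PAR-CLIP, cells take up thiouridine, ultraviolet light crosslinks protein to RNA at these bases, and the crosslinked bases are read as T-to-C conversions. A cluster is a stretch of overlapping reads with such conversions. The labels' title for the series names a role of U2AF1 in translation regulation, which is the question behind the cytoplasmic lists.

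The most-read short intronic clusters with a pyrimidine tract before 1 AG are printed as examples. They are too few to show the shares of CAG and TAG in the lists, which are counted below. They are the deposited cluster sequences, written 5′ to 3′, with the AG and the base before it in capitals. Over all shared intronic clusters, CAG made up 64.2% and TAG 18.1% of the AGs after a tract in the S34F list. In the WT list CAG made up 65.0% and TAG 19.3%. Clusters present in both lists, where the examples printed all hold CAG:
CEP290, intron, chr12:88498486-88498515, minus strand: ttttatttcaggtcttattttcttCAGaat
CSNK2A1, intron, chr20:460172-460200, minus strand: gaatcttttcttcaCAGgtgatttaaatt
IVNS1ABP, intron, chr1:185275822-185275847, minus strand: aatttttcttcaCAGgtttttgcttt
LEMD3, intron (as in the WT list), chr12:65575519-65575548, plus strand: aggttttattttttgCAGgtttttaggagt
Clusters of the S34F list with no overlap in the WT list:
ENOX2, intron, chrX:129939356-129939385, minus strand: acattttcccTAGgaatttatttctctaat
RFC3, intron, chr13:34483296-34483318, plus strand: attttttttttCAGgcgagattt
TNPO3, intron, chr7:128673158-128673185, minus strand: aactttgttctttttCAGgtgaatattc
ZNF711, intron, chrX:84518358-84518387, plus strand: ttcttttaatAAGgaaaaagagggggaaat
Clusters of the WT list with no overlap in the S34F list:
PARP11, intron, chr12:3976109-3976136, minus strand: attttctccaCAGgtagtttgtccaatt
HOXB3, intron, chr17:46657871-46657899, minus strand: atttttctttaCAGctgtttctctctctt
NF1, intron, chr17:29520011-29520040, plus strand: actaatttcttttttttctttccCAGggac
SRPK2, intron, chr7:104908307-104908335, minus strand: gatttatcttttcTAGggtttgcagggtt
The IVNS1ABP cluster had the same ends in both lists, with 112 reads in the S34F list and 75 in the WT list. The ENOX2 cluster was the most read of the S34F-specific set, with 250 reads, and carries a TAG. Coordinates are as the authors' files give them. The genome build is not given in the sources used here.

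The S34F list held 658110 reads and the WT list 526075. A cluster had a median of 9 reads (quartiles 6 and 15) in the S34F list and 10 (7 and 17) in the WT list, and the smallest had 4 reads and 2 conversion positions in both lists. The lists differed in base composition and complexity: the median GC content of a cluster was 42.9% in S34F and 46.9% in WT, and distinct read sequences made up 41.1% and 34.5% of the reads. The 20 most-read clusters took 21.4% of the S34F reads and 16.8% of the WT reads. Of 10 genes that mark HEK 293 cells, 6 had a cluster, all of them in both lists. None of 10 markers of airway epithelium, the other cell type of the series, had a cluster in the 3 lists. MALAT1, a nuclear noncoding RNA, took 0.613% of S34F reads, 0.198% of WT cytoplasmic reads and 0.227% of chromatin reads, and NEAT1 took 0.241%, 0.162% and 0.214%. The part of these differences in the results that follow was not tested. Without matched RNA levels from these cells, more crosslinking and more RNA cannot be told apart.

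About 1 cluster in 10 was shared. Counting as shared any cluster with an overlap of at least 1 nt on the same strand, 2714 of the S34F clusters (9.41%, interval 9.08 to 9.76) and 2713 of the WT clusters (10.2%, 9.83 to 10.6) were shared. They formed 2671 sites, of which 2592 had 1 cluster in each list. The shared clusters carried 22.7% of the S34F reads and 31.0% of the WT reads. Better-covered clusters were shared more often. In the S34F list it was 3.19% at 4 to 5 reads, 12.4% at 11 to 20 reads and 29.7% (26.3 to 33.2) at 51 to 100 reads. In the WT list the same bins gave 2.77%, 11.4% and 31.6% (28.3 to 35.1). Above 100 reads the lists parted. Over 100 and up to 1000 reads 44.1% (38.3 to 49.9) of WT clusters and 28.6% (23.9 to 33.7) of S34F clusters were shared. Above 1000 reads 17 of 24 WT clusters were shared (70.8%, 48.9 to 87.4), and 17 of 52 S34F clusters (32.7%, 20.3 to 47.1).

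**Figure D1:**
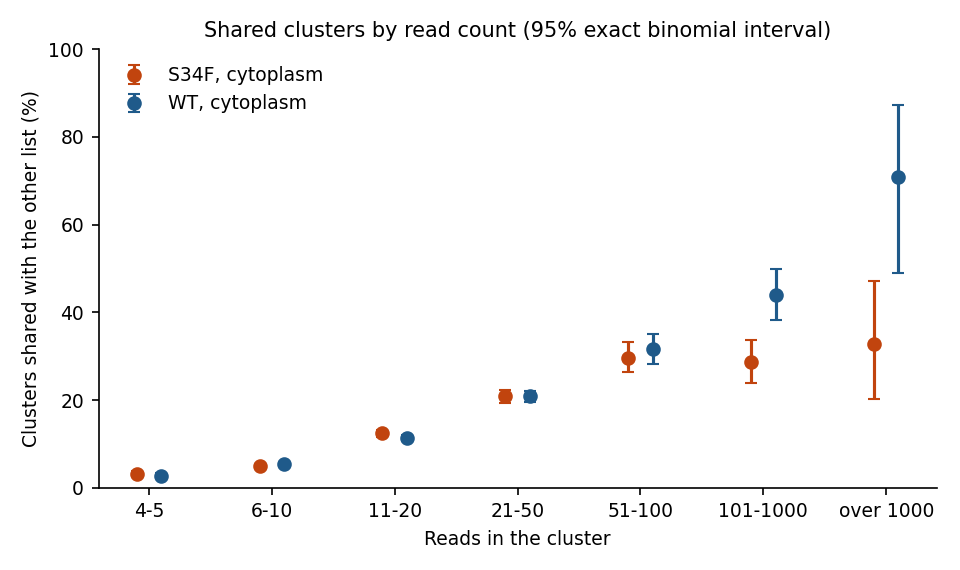
Share of clusters that overlap a cluster of the other list (y axis, percent) by the reads in the cluster (x axis), with S34F in orange and WT in blue; points are shares and bars 95% exact binomial intervals. The share climbs from about 3% at 4 to 5 reads to near 30% at 51 to 100 reads in both lists, and reaches 70.8% in WT and 32.7% in S34F above 1000 reads.

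A cluster without a partner mostly lay in a gene that the other list also held. Of the S34F-specific clusters with a gene name, 89.6% (21596 of 24095) were in a gene with some cluster in the WT list, and of the WT-specific ones 84.1% (18374 of 21853) were in a gene of the S34F list. Shared clusters were longer and better covered: their median length was 30 nt in both lists against 25 nt for S34F-specific and 27 nt for WT-specific clusters, and their median read count was 16 and 18 against 9 and 9. Their median T2C fraction, the authors' measure (0 to 1, printed as a percent) of how much of a cluster is converted, was 61.5% and 61.1%, below the 85.7% of S34F-specific and 87.5% of WT-specific clusters. The gap depended on depth. At 6 to 10 reads the median T2C fraction was 83.3% for shared and 100% for specific S34F clusters, and 90% and 100% in WT. At 11 to 20 reads it was 60% and 66.7% in S34F, and 64.9% and 66.7% in WT. At 21 to 50 reads shared clusters had the higher median, with 48.0% against 45.8% in S34F and 44.9% against 42.4% in WT. GC content separated the specific sets, with medians of 42.9% in S34F-specific and 47.6% in WT-specific clusters, while shared clusters had 45.0% and 45.2%.

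Clusters in the chromatin list gave a reference for where WT protein crosslinks in the nucleus. Of the shared clusters, 35.2% (33.4 to 37.0) in the S34F list and 34.7% in the WT list overlapped a chromatin cluster. The share was 19.8% (19.4 to 20.3) for S34F-specific and 16.3% for WT-specific clusters. At 21 to 50 reads the chromatin overlap was 42.1% for shared and 35.2% for specific S34F clusters, and 38.1% and 28.6% in WT. At 51 to 100 reads the S34F shares were within their intervals of each other, 44.8% (37.9 to 51.8) for shared and 42.6% (38.2 to 47.0) for specific clusters, while WT had 40.6% (34.2 to 47.2) and 33.2% (29.1 to 37.5). S34F-specific clusters had the higher chromatin overlap of the specific sets in both bins, 35.2% (33.3 to 37.0) against 28.6% (27.0 to 30.2) and 42.6% against 33.2%.

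The classes into which the authors placed the clusters differed between the lists. Introns held 34.1% (33.6 to 34.7) of S34F clusters and 28.9% (28.4 to 29.4) of WT clusters, and coding sequence held 26.5% and 32.5% (31.9 to 33.1). The 3′ UTR held 17.3% and 15.1%, and the 5′ UTR 2.37% and 3.54%. Clusters across the junction from an intron into the next exon, the place where U2AF1 is known to act, made up 3.36% (3.16 to 3.58) of the S34F list and 2.77% (2.58 to 2.98) of the WT list, against 17.7% of the chromatin list. Stretches with no annotation were 7.74% and 8.49% of clusters but 27.3% and 19.1% of reads. The lists also differed in GC content within a class: the median intronic cluster had 39.6% GC in S34F and 42.3% in WT, and the median coding cluster 47.2% and 50%.

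**Figure D2:**
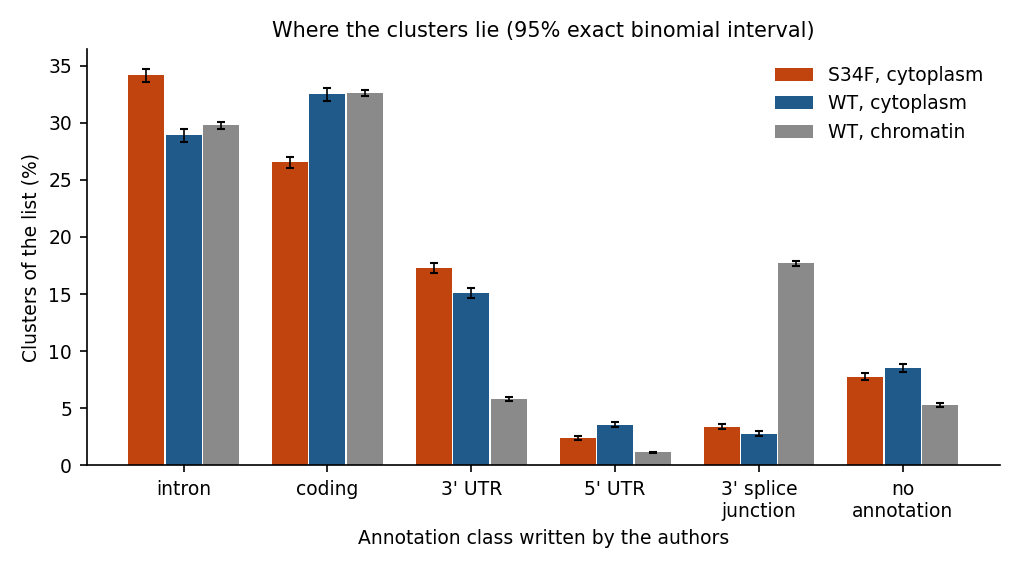
Percent of clusters in each annotation class (y axis) for the S34F cytoplasmic, WT cytoplasmic and WT chromatin lists; bars are shares and error bars 95% exact binomial intervals. Introns are 34.1% of S34F and 28.9% of WT cytoplasmic clusters, coding sequence 26.5% and 32.5%, and junctions into an exon 3.36% and 2.77% against 17.7% on chromatin.

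Sharing depended on class and on depth together. With all clusters, coding clusters were shared more often than intronic ones: 12.8% against 4.66% in S34F, and 11.6% against 5.98% in WT. The 5′ UTR reached 15.2% in S34F and 10.7% in WT. Intronic clusters were also shallower, with a median of 8 reads in S34F and 7 in WT against 11 and 13 in coding sequence. With both lists first cut to clusters of at least 20 reads, the order of the classes differed between lists. Shared then means that the partner also has at least 20 reads. The shares are out of each list's own clusters past the cut, so they cannot be set beside the shares by read count above. Coding clusters were then shared at 16.4% and intronic at 10.3% in S34F, while in WT coding clusters were shared at 10.6% and intronic at 17.3%.

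In introns, CAG made up more and TAG less of the AGs in S34F clusters than in WT clusters. Among all C or T bases directly before an AG in intronic clusters, C made up 69.8% (68.8 to 70.8) of 8126 in S34F and 61.9% of 5474 in WT, a difference of 7.89 percentage points (6.26 to 9.52). To come closer to splice sites, only AGs after a pyrimidine tract were counted next, a tract being at least 8 C or T among the 10 bases before the trimer; this count was added after the data were seen. The share of C was then 79.5% (77.7 to 81.3) in S34F and 63.8% (61.0 to 66.5) in WT, a difference of 15.7 points (12.5 to 19.0). Over all 4 bases, CAG was 58.9% and TAG 15.2% of 2698 such sites in S34F. The corresponding shares were 46.3% and 26.3% of 1664 sites in WT, and 45.9% and 21.6% of 6160 sites in the WT chromatin list. The WT cytoplasmic and the WT chromatin lists thus had nearly the same share of CAG but differed in TAG. C made up 68.0% (66.6 to 69.4) of C and T on chromatin, above the 63.8% of the WT cytoplasmic list. S34F lay above both WT lists in CAG and in this share of C. AAG was 16.0% in S34F, 13.4% in WT and 18.1% on chromatin.

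At exon junctions the pattern had the same direction. Over all AGs there C was 76.0% of C and T in S34F and 70.2% in WT, a difference of 5.81 points (2.06 to 9.57). Away from a tract the difference was 2.34 points (-2.15 to 6.83). After a pyrimidine tract, C was 80.7% (76.3 to 84.6) of C and T in S34F and 66.7% (60.8 to 72.1) in WT, and TAG was 16.0% and 28.9% of sites, with 30.5% on chromatin. In the 3′ UTR the shares of C after a tract were 68.6% (64.7 to 72.2) and 57.0%, while over all AGs of the 3′ UTR they were 58.8% and 58.8%. Coding clusters did not show it. Over all AGs C made up 79.2% in S34F and 81.4% in WT, a difference of -2.18 points (-3.56 to -0.80), which is the other direction. After a tract the shares were 82.5% and 85.3%, a difference of -2.76 points (-8.54 to 3.02). The base just after the AG was G at 49.8% of intronic tract sites in S34F, 53.8% in WT and 35.2% on chromatin.

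**Figure D3:**
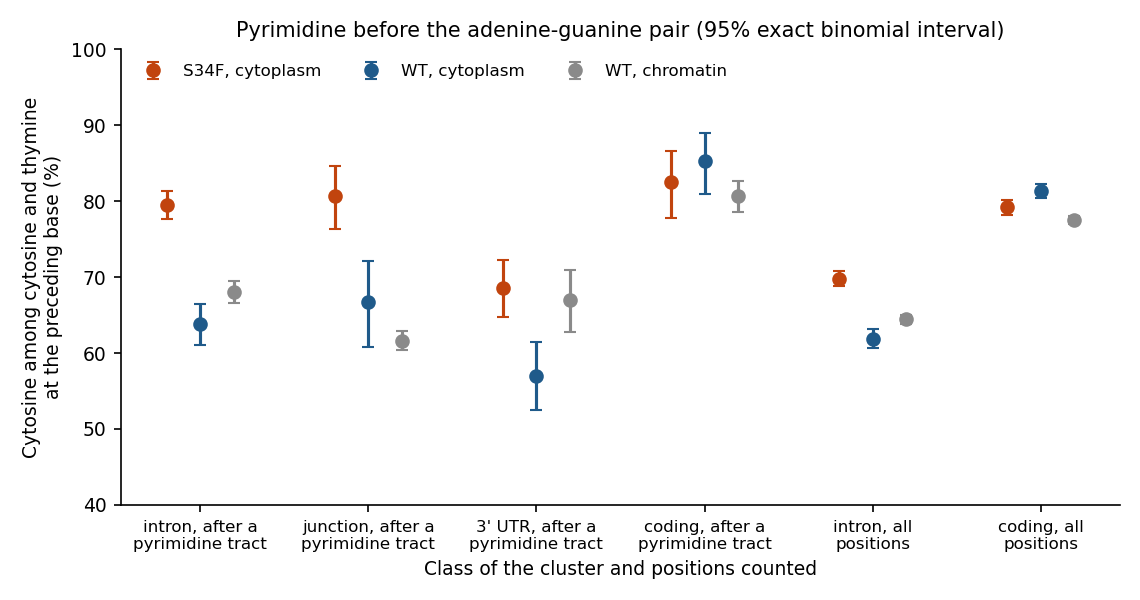
Share of cytosine among cytosine and thymine at the base before the adenine-guanine pair (y axis, percent) for S34F cytoplasmic, WT cytoplasmic and WT chromatin clusters, by class and by whether a pyrimidine tract precedes; bars are 95% exact binomial intervals. After a tract in introns the S34F share is 79.5% and the WT share 63.8%, and in coding clusters over all positions 79.2% and 81.4%.

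Shared and list-specific clusters were also counted apart. In shared intronic clusters C made up 67.2% in the S34F list and 66.8% in the WT list over all AGs, a difference of 0.37 points (-5.53 to 6.27), and in list-specific ones 70.0% and 61.5%, a difference of 8.52 points (6.82 to 10.2). Shared clusters are the same places in both lists, so their sequences differ only where the ends differ. A difference near 0 between them was therefore fixed by the overlap rule and is no result. Its interval takes the counts of the lists as independent, which they are not for shared clusters. The gap between the lists widened with depth. For introns and junctions together after a tract, TAG was 18.1% (14.7 to 22.0) in S34F and 19.5% (14.9 to 24.7) in WT at 4 to 5 reads. It was 16.5% and 25.7% at 6 to 10 reads, 13.1% and 29.1% at 11 to 20 reads, and 13.4% (10.2 to 17.1) and 32.9% (26.7 to 39.5) at 21 to 50 reads. From the shallowest to the deepest of these bins TAG thus went from 18.1% to 13.4% in S34F and from 19.5% to 32.9% in WT, and CAG reached 70.5% in S34F against 54.8% in WT at 21 to 50 reads.

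Words of 5 bases were also counted, without choosing AG. In list-specific intronic clusters, the words with the largest excess in S34F (9385 clusters) over WT (7231) were TTTCA, in 11.4% against 6.44% of clusters, CAGGT in 10.8% against 5.97%, TTCAG in 10.7% against 6.11%, TACAG in 6.81% against 2.57% and CAGAT in 7.67% against 3.76%. Of these 5 words, 4 hold CAG. CAGGT and TTCAG were also in excess in S34F clusters of the 3′ UTR, in 5.79% against 3.33% and 7.29% against 4.69%. The words with the largest excess in WT were CTCCT, in 2.39% against 5.12%, CTGGG in 3.86% against 6.42% and TTCCT in 7.44% against 9.93%, followed by TTCTC and TCCTG, and none of the 5 holds TAG. In coding sequence the words higher in S34F were rich in A, such as AGAAA in 11.3% against 8.96% of clusters and AAGAA in 13.9% against 11.5%. Those higher in WT were led by GCTGG, in 10.5% of WT clusters and with a difference of -3.67 points in S34F, CCTGG in 5.24% against 8.48% and CTGGA in 8.73% against 11.2%, followed by CTGGG and GGCTG.

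Gene by gene, 9222 genes had a cluster in either list and 5265 in both, which is 76.1% of the 6918 S34F genes and 69.6% of the 7569 WT genes. A further 1653 genes had clusters in the S34F list only and 2304 in the WT list only. Most of these had 1 cluster (1154 and 1564 genes), so list-only genes are mainly shallow ones. A gene with no cluster in a list gets no fold here, since the lists hold only clusters above a minimum. Reads were summed over a gene's clusters and divided by the reads of the list, and 3743 genes with a cluster in both lists and at least 40 reads over both were compared. Of these, 633 (16.9%) were at least 2-fold higher in S34F and 1273 (34%) at least 2-fold lower, with a median log2 ratio of S34F over WT of -0.37 (quartiles -1.43 and 0.56). The balance rests on the scaling. Scaled by the median ratio of the shared sites, which adds 0.60 to every log2 ratio, 1074 genes were higher and 810 lower (57.0% higher among those past 2-fold, against 33.2%). Ratios below are on the first scale, and the median of a gene list is also given as its difference from that of all genes, which no scaling changes.

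**Figure D4:**
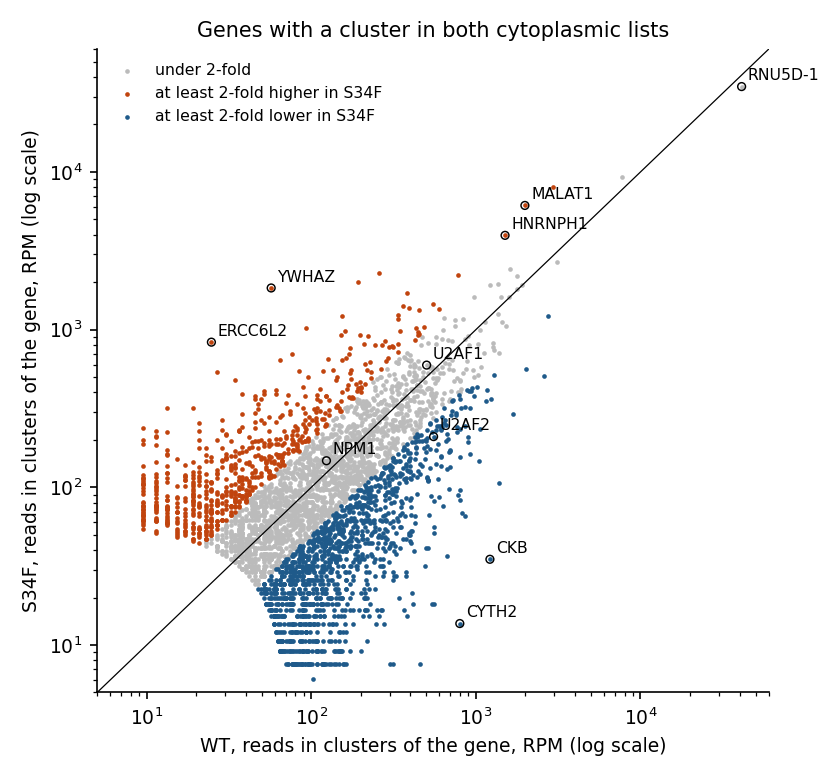
Reads in clusters of each compared gene scaled to the list's total (RPM), WT on the x axis and S34F on the y axis, both log scales; each point is a gene, in orange or blue where it is at least 2-fold higher or lower in S34F, and the line marks equal values. RNU5D-1 has most reads in both lists, MALAT1, HNRNPH1, YWHAZ and ERCC6L2 lie above the line, and CKB and CYTH2 far below it.

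GC content moved with the ratios. Genes lower in S34F had a median cluster GC of 48.7%, genes higher in S34F 42.5% and the remaining ones 43.5%. Across the 3743 genes Spearman's rho between log2 ratio and mean GC of the clusters was -0.28 and Pearson's r -0.27, a description over genes of the same libraries, which are not independent replicates. The part of GC in the gene ratios was not tested. Genes without a shared cluster were 448 of the 633 higher genes (70.8%) and 847 of the 1273 lower genes (66.5%), against 2285 of all 3743 compared genes (61.0%) and 53.9% of those under 2-fold.

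Among the genes with most reads, small nuclear and other noncoding RNAs led. RNU5D-1, a gene of U5 snRNA that base-pairs with exon ends in the spliceosome, had a single shared cluster with 22895 reads in S34F and 21651 in WT, a log2 ratio of -0.24 (-0.27 to -0.22), or 0.35 when scaled by the shared sites. MORF4L1 had 6150 and 4057 reads, 98.4% and 97.6% of them in 1 shared cluster in a processed transcript. RN7SL634P, a pseudogene of the signal recognition particle RNA whose reads may be split with near-identical copies, had 5289 and 1549 reads, a ratio of 1.45 (1.37 to 1.53). MALAT1 had 4035 reads in 22 clusters in S34F and 1044 in 17 clusters in WT, a ratio of 1.63 (1.53 to 1.73). Only 3 of its S34F clusters were shared. NEAT1, the scaffold RNA of paraspeckles, had 1585 and 850 reads, a ratio of 0.58. Both of these nuclear RNAs were thus higher in the S34F cytoplasmic list.

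Of the protein-coding genes among those with most reads, only HNRNPH1 was past 2-fold. HNRNPH1, a splicing regulator that binds G runs, had 2607 reads in 31 clusters in S34F and 791 in 19 clusters in WT, a ratio of 1.40 (1.28 to 1.51). Its most-read S34F cluster, with 379 reads, lay over the start codon and was not shared, and 827 of its S34F reads were in 17 intronic clusters against 250 reads in 12 in WT. ATAD5, which unloads the PCNA clamp from DNA, had 1766 and 1637 reads, 97.9% and 93.2% of them in 1 shared 3′ UTR cluster. KLHL15, an adaptor of a ubiquitin ligase, had 1436 and 930 reads, a ratio of 0.30. DDX17, an RNA helicase, had 1254 reads in 44 clusters and 1000 reads in 35 clusters, a ratio of 0.0035 (-0.12 to 0.12), which leaves it at equal share in the lists on this scale.

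Among genes with at least 100 reads, the largest ratios in favour of S34F were those of ERCC6L2, YWHAZ, CRYZL1, GNB2L1, KLHL28, INSIG1, SUGT1, DLD, MRPS27 and STMN1, from 5.07 down to 4.19. ERCC6L2, a helicase-like protein of DNA repair, had 548 reads in S34F and 13 in WT (5.07, 4.29 to 5.99), and 96.2% of the S34F reads were in 1 cluster of a processed transcript. YWHAZ, an adaptor of the 14-3-3 family, had 1209 and 30 reads (5.01, 4.49 to 5.58). Of its S34F reads 1103 were in 1 cluster of 33 nt in the 3′ UTR, with a T2C fraction of 7.16%, which overlapped a chromatin cluster and no WT cytoplasmic cluster. INSIG1, a regulator of cholesterol synthesis in the endoplasmic reticulum, had 356 and 14 reads, 329 of them in a 3′ UTR cluster. GNB2L1, which encodes the ribosomal scaffold RACK1, had 209 and 7 reads, of which 125 lay across a junction from intron into coding sequence. In 6 of these 10 genes, 1 cluster held at least 50% of the S34F reads.

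The largest ratios in favour of WT were those of CCDC171, CYTH2, RP11-475J5.6, TGOLN2, CKB, TMEM183A, CUL4B, KCNK13, TUT1 and BYSL, from -5.90 to -4.45. CKB, the brain-type creatine kinase, had 640 reads in 6 WT clusters and 23 in 2 S34F clusters (-5.12, -5.79 to -4.52), at a mean cluster GC of 66.4%. CYTH2, an exchange factor for ARF GTPases, had 420 reads in 9 WT clusters and 9 in 1 S34F cluster (-5.87, -7.01 to -4.93). CUL4B, the scaffold of a ubiquitin ligase, had 286 and 12 reads, and 273 of the WT reads were in 1 cluster over the start codon with a T2C fraction of 10.3%. TGOLN2, a protein of the trans-Golgi network, had 158 and 5 reads. TUT1, the uridylyl transferase of U6 snRNA, had 217 and 12, and BYSL, a factor of small ribosomal subunit assembly, 105 and 6. In 8 of the 10 genes 1 cluster held at least 50% of the WT reads, and CKB alone among them had a shared cluster. Over all compared genes 41.4% had such a cluster in S34F and 42.9% in WT.

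Restricting to shared sites reduces differences in where a gene was covered. It does not remove them, as 1 nt of overlap is enough and the clusters of a site can differ in span. Of 1210 shared sites with at least 40 reads over both lists, 152 (12.6%) were at least 2-fold higher in S34F and 445 (36.8%) at least 2-fold lower, with a median log2 ratio of -0.60. Scaled by that median, 282 were higher and 254 lower. Of the 5 sites most in favour of S34F, that of SRSF5, an SR protein, had 157 and 8 reads at a junction from intron into coding sequence, chr14:70235308-70235383 (3.97, 2.96 to 5.21). HNRNPH1 had 167 and 10 reads in an intron (3.74). ZNF507 had 1236 and 88 reads in the 3′ UTR (3.49, 3.18 to 3.82). HP1BP3, a heterochromatin protein, had 909 and 77 reads in an intron (3.24), and NUCKS1 150 and 13 in the 3′ UTR (3.21). The WT cluster at the HP1BP3 site holds a CAG after a tract, chr1:21080705-21080725, minus strand:
HP1BP3: aattttcgttttCAGgttgtt
Among the sites most in favour of WT were an unannotated stretch of chromosome 9 with 5 and 148 reads (-5.21), an intron of UBAP2L with 21 and 459 (-4.77, -5.48 to -4.14), coding sequence of STRAP with 12 and 222 (-4.53) and the 3′ UTR of FEM1B with 10 and 171 (-4.42).

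NPM1, nucleophosmin, a nucleolar protein of ribosome assembly, had no shared cluster. The WT list held 2 clusters: 1 in the 5′ UTR, chr5:170814864-170814933, with 53 reads and a T2C fraction of 26.9%, and 1 in an intron with 12 reads. The S34F list held 10 clusters with 97 reads, of which 7 were intronic, 2 lay across junctions into coding sequence and 1 was in the 3′ UTR with 5 reads. None of the 10 was in the 5′ UTR. Summed over the gene the lists did not differ beyond counting error (log2 ratio 0.25, -0.21 to 0.73), but scaled by the shared sites S34F was higher (0.85, 0.38 to 1.33). An intronic S34F cluster that also overlapped a chromatin cluster holds a run of T, shown in lower case as no AG follows it:
NPM1, intron, chr5:170817202-170817226, plus strand: ggcttgagactttttttcctttgct

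U2AF1 itself had 392 reads in 19 clusters in S34F and 264 in 9 clusters in WT (0.25, 0.02 to 0.48, or 0.84 when scaled by the shared sites). Its most-read cluster in both lists was coding and shared, with 90 and 68 reads. A second shared cluster lay at the junction from an exon into the next intron, with 27 and 17 reads. Introns held 60.7% of the S34F reads and 57.6% of the WT reads of this gene. In its coding reads, tagged transgene and endogenous gene cannot be told apart. U2AF2 had 138 reads in 5 clusters in S34F and 291 in 8 clusters in WT (-1.40, -1.70 to -1.10). Of the S34F reads 94 were in 1 cluster of the 3′ UTR with no WT partner, and the WT reads were mainly coding, with 84, 67, 43 and 28 reads in 4 coding clusters. CXCL8, the chemokine interleukin 8, had no cluster in the 3 lists.

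Gene lists by function follow, in which a pair of numbers gives the reads in S34F and then in WT, and the number in brackets the log2 ratio of S34F over WT with its interval where given. Over all genes 16.9% were higher and 34% lower. Transcripts of the splicing machinery come first. Among factors of the 3′ splice site, 11 of 18 genes were compared, 0 were at least 2-fold higher in S34F and 4 lower (36.4%), with a median of 0.08, which is 0.45 above that of all genes. The 4 were SF3B2 with 32 and 140 reads (-2.45), U2AF2, SF3B1 with 210 and 425 (-1.34, -1.59 to -1.10) and PHF5A with 16 and 31 (-1.28); SF3B1, SF3B2 and PHF5A are subunits of the SF3b complex that holds the branch site. The members with most reads were RBM39, with 1055 and 749 reads (0.17, 0.03 to 0.31), and SF3B3, with 385 and 276 (0.16). Scaled by the shared sites, 1 was higher and 1 lower.

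Of the core spliceosome 18 of 28 genes were compared, 2 were higher and 9 lower (50%), with a median of -0.96, which is 0.59 below all genes. Lower were SNRNP70, the U1 snRNP protein, with 103 and 325 reads (-1.98, -2.31 to -1.66), PRPF8 with 129 and 263 (-1.35), EFTUD2 with 53 and 119 (-1.49), SNRPB with 129 and 238 (-1.21), SNRPA with 234 and 380 (-1.02), DHX38, DDX23, PRPF4 and USP39. Higher were DDX46, the helicase of branch site recognition, with 512 and 164 reads (1.32, 1.06 to 1.58), and SNRPA1 with 50 and 17 (1.23). Scaled by the shared sites the counts turned to 5 higher and 3 lower, while the median stayed below 0 at -0.37.

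Of the SR proteins 14 of 15 were compared, 2 higher and 3 lower, with a median of -0.33, which is 0.04 above all genes (4 higher, 2 lower and 0.27 when scaled by the shared sites). The differences were large in both directions. SRSF5 had 609 reads in S34F and 80 in WT (2.61, 2.27 to 2.96) and SRSF2 596 and 117 (2.03, 1.74 to 2.32), while SRSF7 had 73 and 269 (-2.20, -2.60 to -1.83), SRRM2 373 and 1056 (-1.82, -2.00 to -1.65) and SRSF11 177 and 340 (-1.26). SON, with most reads, had 1274 and 717 (0.51). Of the hnRNPs 22 of 23 were compared, 4 higher and 8 lower (36.4%), with a median of -0.68, which is 0.30 below all genes (7 higher and 5 lower when scaled by the shared sites). HNRNPC, which binds U runs, had 502 reads in 31 clusters in S34F and 91 in 6 in WT (2.14, 1.82 to 2.48), HNRNPA1 638 and 235 (1.12) and HNRNPR 475 and 178 (1.09). HNRNPA2B1 had 1193 and 938 (0.02, -0.10 to 0.15). HNRNPK had 50 and 330 (-3.05, -3.50 to -2.61), the poly(C)-binding PCBP1 27 and 183 (-3.08) and PCBP2 238 and 649 (-1.77), PTBP1 40 and 149 (-2.22) and HNRNPL 159 and 327 (-1.36). HNRNPUL2, HNRNPDL and HNRNPA3 were also lower.

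Genes whose exon use is reported to change with S34F were mostly at or below the median: 18 of 25 were compared, 2 higher and 8 lower (44.4%), with a median of -0.77, which is 0.39 below all genes (2 higher, 3 lower and -0.17 when scaled by the shared sites). This list was drawn from general knowledge of S34F splicing studies. KMT2C had 201 and 80 reads (1.01) and ATR 86 and 32 (1.10), while ASUN had 9 and 44 (-2.61), GNAS 90 and 247 (-1.78, -2.14 to -1.43), STRAP 120 and 265 (-1.47), KMT2D 104 and 192 (-1.21), MED24 36 and 64 (-1.15), PICALM 24 and 47 (-1.29) and COPB2 27 and 46 (-1.09). PTBP1 is in this list too. WAC, with most reads, had 404 and 342 (-0.08, -0.29 to 0.13). Of the genes of nonsense-mediated decay and the exon junction complex 12 of 18 were compared, 1 higher and 3 lower (4 and 2 when scaled by the shared sites), with a median 0.24 above all genes. SMG8 had 100 and 29 reads (1.46), SMG5 61 and 152 (-1.64), SMG1 27 and 90 (-2.06) and EIF4A3, the core of the exon junction complex, 81 and 142 (-1.13).

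Messenger RNAs of the translation machinery come next. Of 46 translation factors 35 were compared, 4 higher and 13 lower (37.1%), with a median of -0.56, which is 0.18 below all genes (7 higher, 10 lower and 0.04 when scaled by the shared sites). The 4 higher ones were the initiation factors EIF1AX with 673 and 49 reads (3.46, 3.04 to 3.91), EIF2S3 with 239 and 26 (2.88), EIF2S1 with 90 and 5 (3.85, 2.57 to 5.50) and EIF1 with 514 and 155 (1.41, 1.14 to 1.68). Lower were 4 subunits of eIF3, EIF3D with 10 and 136 (-4.09), EIF3K with 9 and 67 (-3.22), EIF3A with 49 and 184 (-2.23) and EIF3B with 131 and 258 (-1.30), the cap-binding complex members EIF4A1 with 57 and 313 (-2.78, -3.21 to -2.37) and EIF4G1 with 75 and 265 (-2.14), and EIF2S2 with 54 and 185 (-2.10). EIF5A, EEF1D, EIF2B1, GSPT1, EIF5B and PABPC4 were lower as well. EIF4G2, with most reads, had 381 and 568 (-0.90), and EEF2 401 and 361 (-0.17). The 3 subunits of eIF2 thus lay on both sides, and EIF3J had 48 reads in S34F and no cluster in WT.

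Large-subunit ribosomal proteins had the lowest median of the lists with at least 10 compared genes: 27 of 47 were compared, 2 higher and 14 lower (51.9%), with a median of -1.02, which is 0.65 below all genes. Lower were RPL35 with 27 and 261 reads (-3.60, -4.23 to -3.02), RPL4 with 34 and 293 (-3.43, -3.99 to -2.92), RPL37A with 74 and 308 (-2.38), RPL15 with 113 and 364 (-2.01) and RPL18, with most reads, 255 and 414 (-1.02, -1.25 to -0.79). RPL3, RPL9, RPL13A, RPL35A, RPL38, RPL31, RPLP0, RPL13 and RPL32 were lower too. Higher were RPL23A with 90 and 23 (1.65) and RPL6 with 36 and 8 (1.85), and RPL5 had 234 reads in S34F and no cluster in WT. The class of the reads differed: 28.3% of the WT reads of these genes but 11.4% of the S34F reads were in the 3′ UTR, and 27.6% and 42.8% in coding sequence. With the scaling by shared sites 4 were higher and 10 lower, and the median was -0.43. Many ribosomal protein genes have processed pseudogenes, and how multiply mapping reads were placed is not given in the sources used here.

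Small-subunit proteins were nearer to the rest, with 19 of 32 compared, 3 higher and 7 lower (36.8%), and a median of -0.57, which is 0.20 below all genes (3 higher, 4 lower and 0.02 when scaled by the shared sites). RPS21 had 27 and 131 reads (-2.60), RPS29 95 and 10 (2.92, 1.98 to 4.03) and RPS19 124 and 29 (1.77). RPS4X, with most reads, had 277 and 264 (-0.25). Of the tRNA synthetases 17 of 20 were compared, 3 higher and 4 lower (8 and 1 when scaled by the shared sites), with a median 0.13 above all genes. LARS had 814 reads in 37 clusters and 177 in 11 (1.88, 1.64 to 2.12), YARS 234 and 67 (1.48), FARSA 37 and 291 (-3.30, -3.83 to -2.80) and AARS 115 and 275 (-1.58). Of the nucleolar and ribosome assembly genes 14 of 20 were compared, 2 higher and 5 lower (3 and 2 when scaled by the shared sites), with a median 0.08 above all genes. FBL, the methyltransferase fibrillarin, had 191 and 39 reads (1.97, 1.47 to 2.50) and NOLC1 241 and 94 (1.04), WDR12 11 and 56 (-2.67) and MYBBP1A 44 and 117 (-1.73). NCL, nucleolin, had 695 and 392 (0.50). Of the hosts of snoRNAs 9 of 17 were compared, 1 higher and 5 lower (55.6%, or 2 and 1 when scaled by the shared sites), with a median 0.68 below all genes. GAS5 had 222 and 43 reads (2.05, 1.57 to 2.55) and SNHG15 140 and 233 (-1.06), with SNHG7, SNHG12, SNHG16 and TAF1D also lower.

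**Figure D5:**
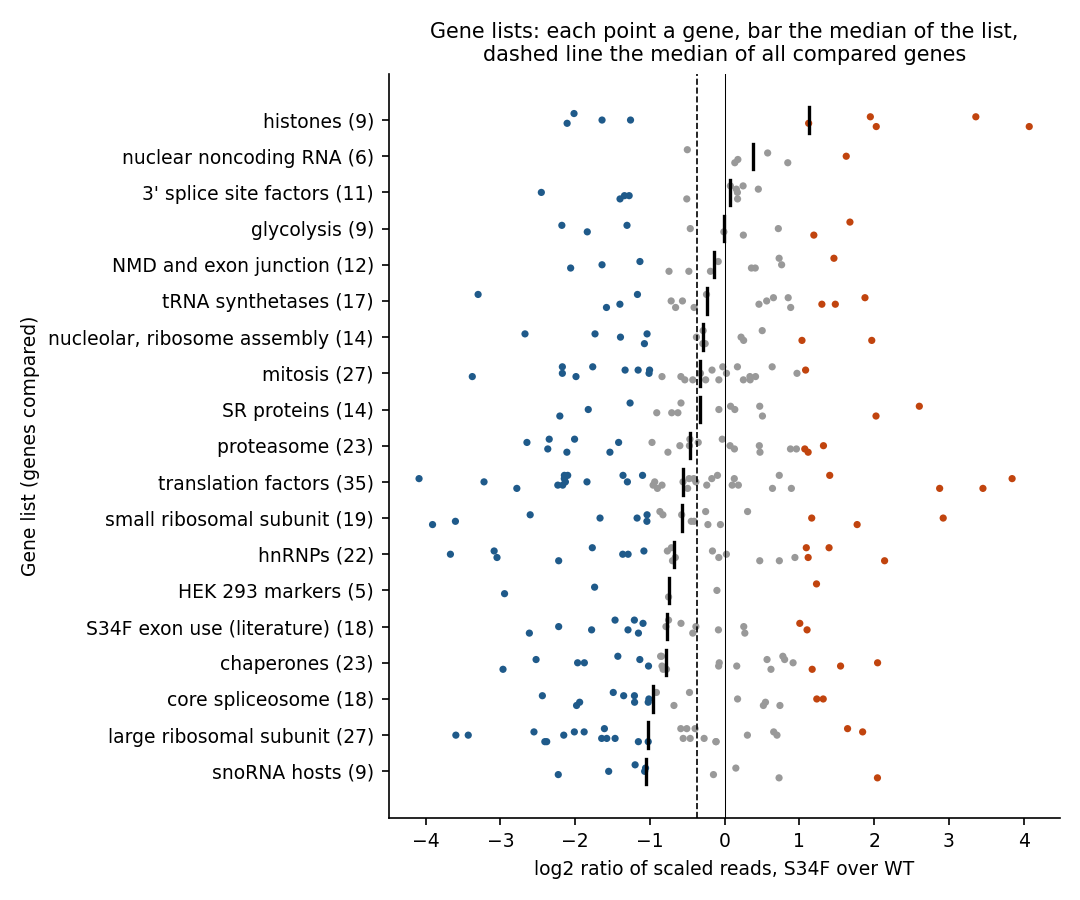
Log2 ratio of scaled reads, S34F over WT (x axis), for every compared gene of each list with at least 5 compared genes (y axis, number compared in brackets); points are genes, the black bar is the list's median and the dashed line the median of all compared genes, -0.37. Large ribosomal subunit, core spliceosome and snoRNA host lists lie lowest, and the histone list spreads to both sides of 0 with a median of 1.12.

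Histone messages, which end in a stem-loop and not in a poly(A) tail, took more of the S34F list. Of 44 listed genes 24 had a cluster, 10 in the S34F list only and 3 in the WT list only. Of all 9222 genes with a cluster in either list, 1653 were in the S34F list only and 2304 in the WT list only. Together the histone genes had 2302 reads in 38 S34F clusters and 599 in 18 WT clusters. Of 9 compared, 5 were higher and 4 lower, so the genes did not go one way, and the median was 1.12 against -0.37 for all genes. HIST1H1C, a linker histone, had 434 and 85 reads (2.03, 1.69 to 2.38), HIST1H2BJ 211 and 10 (4.08, 3.17 to 5.16), HIST1H4A 90 and 7 (3.36), HIST1H2AG 87 and 18 (1.95) and HIST1H3D 60 and 22 (1.12). HIST1H2AH had 39 and 126 (-2.01), HIST1H3H 59 and 147 (-1.64), HIST1H1D 9 and 31 (-2.11) and HIST1H2AC 23 and 44 (-1.26). HIST1H4H had 464 S34F reads in 1 cluster and no cluster in WT. Coding sequence held 50.1% of the S34F and 59.3% of the WT histone reads. The histone genes are close copies of each other, so reads may be split among them. The nuclear noncoding list had 6 of 12 genes compared, 1 higher (MALAT1) and 0 lower (3 and 0 when scaled by the shared sites). Its median was 0.38, which is 0.75 above all genes.

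Lists with no tie to splicing or translation were set beside these, with the counts when scaled by the shared sites in brackets. Their medians were 0.09 below all genes for the proteasome and 0.40 below for the chaperones, 0.36 above for glycolysis and 0.05 above for mitosis. Of the proteasome 23 of 31 were compared, 3 higher and 7 lower (7 and 5); PSMC2 had 97 and 31 reads (1.32), PSMD1 33 and 136 (-2.37) and PSMA7 31 and 107 (-2.11). Of the chaperones 23 of 30 were compared, 3 higher and 7 lower (8 and 4); CCT2 had 367 and 71 (2.05, 1.68 to 2.43) and its partners in the same ring CCT7 104 and 325 (-1.97, -2.30 to -1.64) and CCT4 79 and 170 (-1.43), P4HB 33 and 206 (-2.97) and HSP90AA1 231 and 374 (-1.02). Of 16 glycolysis genes 9 were compared, 2 higher and 3 lower (3 and 2); PKM had 154 and 557 (-2.18, -2.44 to -1.92), GPI 341 and 674 (-1.31) and LDHA 76 and 19 (1.68). Of 30 mitosis genes 27 were compared, 1 higher and 9 lower (4 and 5); TOP2A had 281 and 501 (-1.16), TPX2 155 and 421 (-1.76, -2.04 to -1.50), AURKB 87 and 276 (-1.99) and BUB1 114 and 43 (1.08). Of 8 secreted factors VEGFA alone had 40 reads or more, with 37 and 69 (-1.22). Among the HEK 293 markers VIM had 220 and 75 reads (1.23) and SOX4 130 and 347 (-1.74).

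Genes with clusters in 1 list only, and at least 20 reads there, were then looked up in HBEC libraries, which the cluster lists did not use, with 1 library per line and no test. Values are log2 of CPM (counts scaled to the library's total) plus 0.5, S34F minus WT, over genes with at least 10 CPM in 1 of the lines. In the U2AF1 immunoprecipitate the median of 227 S34F-only genes was -0.12, and that of all 9123 genes was -0.12. The 438 WT-only genes had a median of -0.04, which is 0.09 above all genes. In the IgG control the WT-only genes were 0.26 above all genes and the S34F-only genes 0.06 above. In the cytosol the S34F-only genes were 0.09 above all genes, and the WT-only genes differed from all genes by -0.0035. In the summed polysome fractions the differences were 0.07 and 0.02. With 1 library per line these shifts have no replicate check. NPM1 had 659 CPM in the immunoprecipitate of the WT line, with 253 in its IgG control, and 561 in that of the S34F line, with 463 in its control. In the cytosol it had 377 CPM in the WT line and 525 in the S34F line. The immunoprecipitate library held 8280718 counts in the WT line and 2489545 in the S34F line.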

How the data were processed

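PAR-CLIP clusters were deposited by the authors as 3 lists (S34F cytoplasm, WT cytoplasm, WT chromatin), each made from replicates A and B together, per the labels. Per the file headers each cluster has a gene name, a class, a sequence, read counts (whole numbers, not normalized) and a T2C fraction (the authors' measure of conversion, whose formula is not given in the sources used here). TopHat is named in the submitters' processing notes without a version; the peak caller and the genome build are not given in the sources used here, though the scaffold names are those of GRCh37. HBEC tables hold expected counts, deposited by the authors, which were summed over polysome fractions and scaled to CPM (edgeR 4.0.16 for the TMM alternative only, as these values were not tested). Computed here with Python 3.11.15, pandas 2.3.3 and scipy 1.17.1 were overlaps, exact binomial intervals for shares, exact conditional intervals for ratios of read counts, and the base before each AG of the cluster sequences. The difference between 2 shares of C has a normal interval. The overlap and ratio code was tested on simulated data. Genes were compared with a cluster in both lists and at least 40 reads over both.

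Named genes are the 10 with most reads (1 is not reported here), the 10 largest ratios each way with at least 100 reads, the 5 most-read and 5 most different sites of each kind, NPM1, U2AF1, U2AF2 and CXCL8, and, of 21 gene lists (500 genes), the most-read members and members past 2-fold (some members and 1 site are not reported here). Printed sequences are the most-read intronic or junction clusters of at most 30 nt with 1 AG after a tract, a choice made after the data were seen. Members and lists were chosen with earlier results of these data known. The alternatives tried are in the closing section.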

Additional observations from a re-analysis of the deposited data

How the results depend on the processing

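The lists pool their replicates, so leaving out a replicate was not possible. No paired analysis was possible because replicates A and B are pooled in each list and no test was made. Of 127 values of the main comparisons under an alternative, 73 stayed within their counting error or within 1.5 times the count, and 54 moved; of 190 values of single genes, 124 stayed, 62 moved and 4 reversed. With an overlap of at least 50% of the shorter cluster, sharing was 8.59% of S34F and 9.30% of WT clusters (11.7% and 10.5% of coding), and chromatin overlap 32.0% and 32.1% for shared, 17.6% for S34F-specific and 13.8% for WT-specific clusters. The minimum reads were asked of both cytoplasmic lists, so a shared cluster needs a partner that also passes. With at least 10 reads sharing was 13.0% and 12.6% (coding S34F 14.9%, intron 7.36% and 10.1%) and specific chromatin overlap 27.4% and 22.1%. With at least 20 reads sharing was 16.0% and 13.9% (coding 16.4% and 10.6%, intron 10.3% and 17.3%) and specific chromatin overlap 32.2% and 25.2%. With a T2C fraction of at least 0.2 sharing was 9.04% and 9.82%, and the median T2C of shared clusters 63.6% and 63.2%. With the same number of clusters from each list, S34F sharing was 9.95%, and S34F-specific chromatin overlap 20.8% and median T2C 83.3%.

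Genes higher and lower in S34F numbered 354 and 817 at 3-fold, 315 and 580 with at least 100 reads, 365 and 526 from distinct read sequences, and 1074 and 810 scaled by the shared sites. Shared sites numbered 83 and 256 at 3-fold, 49 and 138 with at least 100 reads, 229 and 779 with at least 20 reads, and 282 and 254 scaled by the shared sites. That scaling reversed ATAD5 (0.38) and RNU5D-1 (0.35), and MORF4L1 reversed with conversion events (-0.52) or distinct sequences (-0.12) in place of reads; the cause was not tested. The intronic difference in C before AG was 9.94 points with at least 20 reads, and 14.4, 15.7 and 18.7 points after at least 7, 8 or 9 pyrimidines of 10 (added after the data were seen). In shared clusters, which are the same places in both lists, it was 0.37 points, a value near 0 that the overlap rule fixed and no result. With no minimum in HBEC, S34F-only genes differed from all genes by -0.27 and WT-only genes by -0.043 in the immunoprecipitate, and WT-only genes by 0.080 in polysomes. Depth limits the lists: most clusters have few reads, and a cluster missing from a list is not shown to be unbound.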

Other observations

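The most-read clusters found in 1 list only lay in unannotated stretches and in noncoding RNA copies. The 5 most-read S34F-specific clusters were an unannotated stretch of chromosome 17 (29877078 to 29877241, plus strand) with 13154 reads, which overlapped a chromatin cluster, unannotated stretches of chromosome 6 (26521483 to 26521531 and 27696342 to 27696374) with 10879 and 7933 reads, RNA5SP477, a pseudogene of 5S ribosomal RNA, with 8436 reads, and RN7SL559P, a pseudogene of the signal recognition particle RNA, with 8219 reads. The RNA5SP477 reads came from 187 distinct sequences, against 4605 for the chromosome 17 stretch. The 5 most-read WT-specific clusters had fewer reads, from 5966 in an unannotated stretch of chromosome 17 (37310030 to 37310065, minus strand) and 3389 in RNA5SP44 down to 1418 in an unannotated stretch of chromosome 7. Reads of such repeated sequences may come from any of their copies.

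Of 131 unannotated shared sites with at least 40 reads, 28 were at least 2-fold higher in S34F and 46 lower, with a median log2 ratio of -0.46 against -0.60 over all shared sites. A stretch of chromosome 12 (12756811 to 12756845, minus strand) had 10905 reads in S34F and 22132 in WT, a log2 ratio of -1.34 (-1.38 to -1.31), and a stretch of chromosome 11 (63345196 to 63345224, plus strand) had 3404 and 4998, a ratio of -0.88. Small RNA classes had few clusters but many reads: snRNA made up 4.58% of S34F and 4.43% of WT reads, misc_RNA 3.27% and 1.56%, and snoRNA 0.845% and 0.524%. The miRNA class had 21 clusters in S34F and 16 in WT, of which 0 were shared, where 9.41% and 10.2% of all clusters were.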
